A study of Saccharomyces cerevisiae with 3 samples.

Results

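The large subunit of the cytoplasmic ribosome of budding yeast, Saccharomyces cerevisiae, is built from ribosomal RNA and a fixed set of proteins, each needed in the same number of copies per ribosome except for the acidic stalk proteins. Most of these proteins are encoded by a pair of paralogous genes named A and B. The genes form a regulon that is transcribed at a high rate in growing cells, largely through the DNA-binding protein Rap1 and the Fhl1 and Ifh1 proteins, and they are known to be repressed together, for a time, when yeast meets heat or another stress. The genes described here are those named RPL followed by a number and an optional A or B, together with the stalk genes RPP0, RPP1A, RPP1B, RPP2A and RPP2B. They number 81 of the 6256 genes on the arrays, 76 RPL and 5 RPP genes, and were measured with 126 of 10263 gene spots. Of the 81 genes, 70 form 35 pairs of an A and a B copy and 11 stand alone, namely RPL3, RPL5, RPL10, RPL25, RPL28, RPL29, RPL30, RPL32, RPL38, RPL39 and RPP0. All 81 names matched a gene of the same symbol in the R64 gene table. The probe sequences were not among the sources used here, so how far a probe tells near-identical copies apart was not tested.

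Total RNA of a yeast strain from which HHO1 was deleted was set against that of a wild-type strain, without heat and after 15 min of heat shock at 37 °C. HHO1 encodes the linker histone Hho1p. Cells were grown in YPAD, a rich medium, at 25 °C to an optical density of 0.5. The labels name neither the strain background nor the number of cultures behind an RNA. Each of 3 two-colour Agilent arrays set 1 sample against wild-type RNA from 25 °C. The samples were heat-shocked deletion cells, deletion cells kept at 25 °C and heat-shocked wild-type cells. The deletion strain was labelled with Cy3 on both its arrays and the heat-shocked wild type with Cy5. The deletion arrays shared a slide that did not hold the wild-type array, so strain at 37 °C cannot be told apart from dye orientation, slide or scan.

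With 1 array per group no test was possible, no difference below has a replicate check, and the spread of the control is left out. Values are log2 ratios normalised within each array, and an SD is that between the repeat spots of a gene on the arrays used, a technical error only. There were 45 genes with 2 spots and 36 with 1, which have no SD. Rose and fell are used for genes past a size rule only: a mean log2 ratio of 1 or more in size, and 0.58 or more in that direction in each spot. The HHO1 ratio of the deletion strain over the wild type was -3.91 ± 0.01 at 37 °C and -4.34 ± 0.16 at 25 °C; whether its probe lies in the deleted stretch was not tested. The large subunit genes were bright: the median signal of the wild-type RNA from 25 °C above local background was 38754 on the array of heat-shocked deletion cells, 44451 on that of deletion cells at 25 °C and 14158 on that of heat-shocked wild-type cells, where all gene spots had medians of 970.71, 1236.9 and 537.62. All spots of 80 genes were well above background in every channel. RPL7B was not well above background in the heat-shocked deletion strain. No spot was saturated.

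Almost the whole set was lower after heat in both strains. In the deletion strain 80 of 81 members fell and 0 rose, and the median log2 ratio was -2.81, or 7.01-fold lower. In the wild type 77 fell and 1 rose, and the median was -2.48, or 5.56-fold lower. Over all genes measured, 15.8% fell and 11.5% rose in the deletion strain, 16.4% fell and 11.6% rose in the wild type, and the medians were 0.00 in both. The members ranged between -4.08 and 0.74 in the deletion strain and between -4.12 and 1.11 in the wild type, with an SD over genes of 0.70 and 0.76. Repeat spots of a gene differed far less, with a root mean square SD of 0.036 in deletion cells and 0.050 in wild-type cells, so the members differed among themselves by more than the spread between spots. The array ratios of both strains were taken over the same wild-type RNA from 25 °C, and the response of the deletion strain subtracts its own 25 °C ratio. Values of the strains are set side by side without a measure of likeness. In bulk RNA a change in the amount of a message per cell and a change in the mix of cells cannot be told apart.

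**Figure D1:**
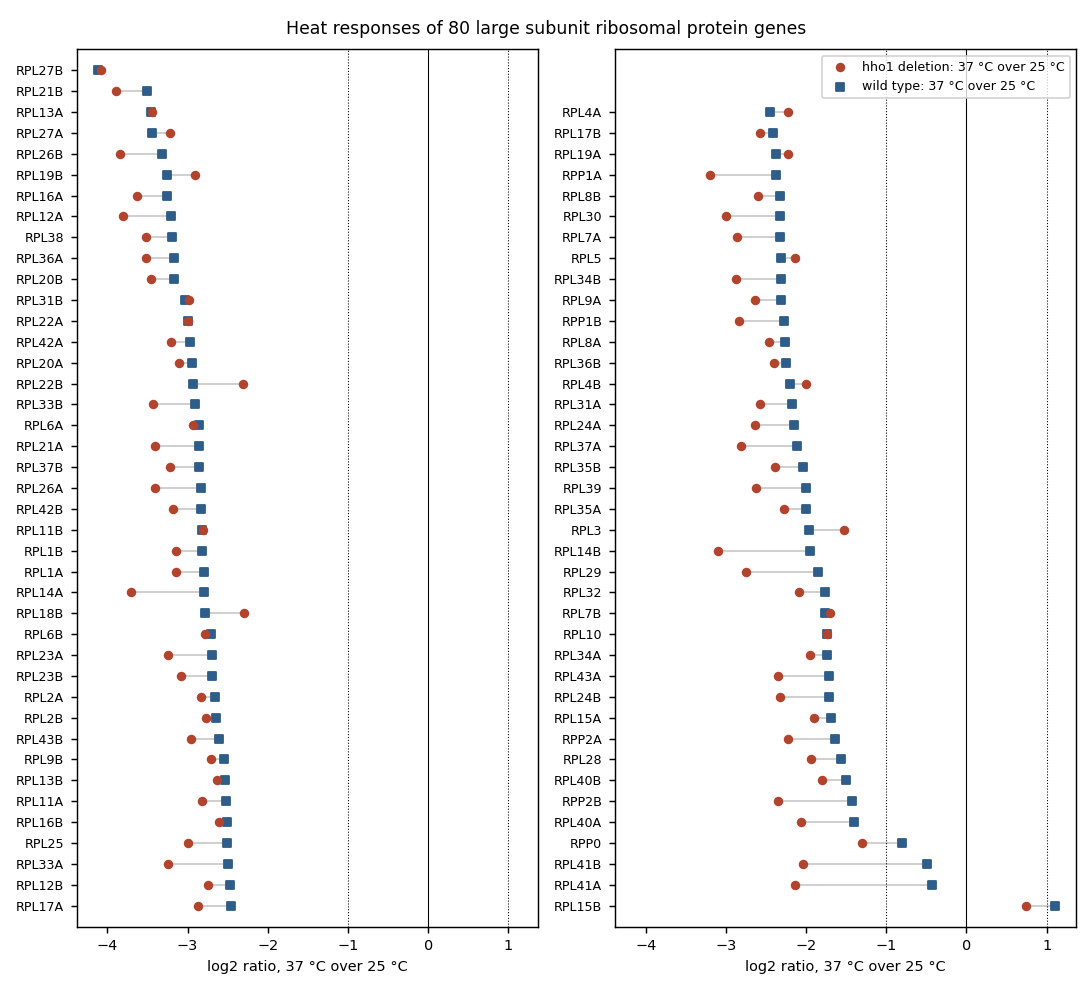
Heat response of 80 of the 81 large subunit genes, as the log2 ratio of 37 °C over 25 °C on the horizontal axis, with the deletion strain as red circles and the wild type as blue squares, ordered by the wild-type value. Dotted lines mark -1 and 1, and RPL15B is the only gene to the right of 0 in either strain.

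RPL27B (YDR471W) had the lowest ratio in both strains. Its log2 ratio to the wild type at 25 °C was -4.07 ± 0.01 in the deletion strain at 37 °C, 0.01 ± 0.03 in the deletion strain at 25 °C and -4.12 ± 0.10 in the wild type at 37 °C. The heat response was therefore -4.08 ± 0.02 in deletion cells and -4.12 ± 0.10 in wild-type cells, 17.0-fold and 17.4-fold lower. Above background and before normalisation, its signal in the heat-shocked deletion strain was 435.9 in Cy3. The wild-type 25 °C RNA beside it read 13644 in Cy5. In the heat-shocked wild type it was 570.27 in Cy5, against 4374.6 in Cy3 for the 25 °C RNA. Without heat, the deletion strain read 4987.5 in Cy3 against 14696 in Cy5 for the wild type. These signals differ by dye and so do not give the size of the fall. After RPL27B, the lowest values in the deletion strain were those of RPL21B at -3.90, RPL26B at -3.85, RPL12A at -3.81 and RPL14A at -3.71. In the wild type they were RPL21B at -3.51, RPL13A at -3.46, RPL27A at -3.45 and RPL26B at -3.33. RPL21B, RPL26B and RPL27B were thus among the 5 lowest in each strain.

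RPL15B (YMR121C) was the exception. Its log2 ratio to the wild type at 25 °C was 0.43 ± 0.04 in the deletion strain at 37 °C, -0.31 ± 0.02 in the deletion strain at 25 °C and 1.11 ± 0.06 in the wild type at 37 °C. The gene thus rose 2.16-fold with heat in the wild type, while its response of 0.74 ± 0.02 in the deletion strain did not reach the size rule. Above background and before normalisation, its signal was 5027.6 in the heat-shocked wild type in Cy5, against 1041.8 for wild-type RNA from 25 °C in Cy3. In the deletion strain, both times in Cy3, it was 1879.6 after heat and 1062.7 at 25 °C. The rise in the wild type was past the rule at all 7 other settings of the background, normalisation, filter and table, at 1.03 to 1.55, and the value of 1.11 was not past a rule of 1.5. Its copy RPL15A (YLR029C), which encodes nearly the same protein of the subunit's core, fell in both strains, at -1.91 ± 0.02 in deletion cells and -1.68 ± 0.07 in wild-type cells.

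Other members stood near the top of the range. RPL41A, RPL41B and RPP0 did not pass the rule in the wild type, at -0.43 ± 0.03, -0.50 ± 0.00 and -0.81 ± 0.10, and all 3 fell in the deletion strain, at -2.14 ± 0.04, -2.04 ± 0.01 and -1.30 ± 0.00. RPP0 also fell in the wild type at 2 alternative settings, reading -1.12 with the scanner's processed signals and -1.03 without background correction. Other settings went the other way. The highest wild-type value among the stalk genes, to which RPP0 belongs, was -0.39 with median centring and -0.57 without an offset. In the deletion strain the highest values below RPL15B were those of RPP0, of RPL3 at -1.53 ± 0.05, of RPL7B at -1.70 and of RPL10 at -1.74. In the wild type RPL40A at -1.41 came after RPP0. RPL3 encodes a protein that reaches towards the catalytic centre of the ribosome, and RPL10 a protein that joins the subunit late, in the cytoplasm. For RPL7B, whose heat-shocked deletion signal was dim, the measured fall was 3.25-fold. Its normalised Cy3 signal alone was 2.41-fold lower than in the deletion strain at 25 °C, a value that rests on the same dim spot.

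The stalk is the mobile arm of the large subunit that recruits translation factors; RPP0 carries the RPP1 and RPP2 proteins, and the RPL12 protein sits at its base. All 7 stalk genes fell in the deletion strain, with a median of -2.74, and 6 of 7 in the wild type, with a median of -2.27. RPL12A (YEL054C) was lowest, with array ratios to the wild type at 25 °C of -3.72 ± 0.01 in the deletion strain at 37 °C, 0.09 ± 0.00 in the deletion strain at 25 °C and -3.21 ± 0.06 in the wild type at 37 °C. RPP0 was highest, with -1.53 ± 0.01, -0.23 ± 0.00 and -0.81 ± 0.10 on the same arrays. Between them, the deletion strain's heat response was -3.20 for RPP1A, -2.84 for RPP1B, -2.74 for RPL12B, -2.35 for RPP2B and -2.23 ± 0.02 for RPP2A. The wild-type response was -2.37 for RPP1A, -2.27 for RPP1B, -2.48 for RPL12B, -1.43 for RPP2B and -1.64 ± 0.01 for RPP2A. The genes of the RPP1 proteins lay below those of the RPP2 proteins in each strain.

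The proteins of RPL5 and RPL11 bind the small 5S ribosomal RNA and enter the subunit together with it. RPL5, RPL11A and RPL11B fell in both strains, at -2.14 ± 0.02, -2.83 and -2.81 ± 0.02 in the deletion strain and -2.32 ± 0.03, -2.52 and -2.82 ± 0.02 in the wild type. Along and around the exit of the tunnel through which the new protein leaves the ribosome lie the proteins of RPL4, RPL17, RPL19, RPL25, RPL26, RPL31, RPL35 and RPL39. All 14 of these genes fell in both strains, with a median of -2.60 in deletion cells and -2.44 in wild-type cells. In the deletion strain they ranged between -3.85 for RPL26B and -2.01 for RPL4B, and in the wild type between -3.33 for RPL26B and -1.996 for RPL35A. RPL25, the docking site of the signal recognition particle, was at -2.99 in deletion cells and -2.51 in wild-type cells, and RPL39, one of the smallest proteins of the tunnel, at -2.62 and -2.005 in the same strains.

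Of the groups formed here, that of RPL10, RPL24, RPL40 and RPL41 lay highest. Their proteins lie at the face that meets the small subunit or is completed last. The group does not hold every protein of that face, and RPL24, RPL40 and RPL41 each enter it as an A and a B copy. All 7 fell in the deletion strain, with a median of -2.07, and 5 of 7 in the wild type, with a median of -1.50. The RPL40 genes, whose product is made as a fusion with ubiquitin, were at -2.07 for RPL40A and -1.81 for RPL40B in deletion cells and at -1.41 and -1.50 in wild-type cells. The RPL24 genes, which encode a bridge protein, were at -2.64 ± 0.02 for RPL24A and -2.33 for RPL24B in deletion cells and at -2.15 ± 0.07 and -1.71 in wild-type cells. The other 50 genes had a median of -2.94 in the deletion strain, where 49 fell, and of -2.65 in the wild type, where 49 fell and RPL15B rose. These groups were formed with earlier results of the data known, and the differences between them were not tested.

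Genes without a paralogue lay higher than genes of a pair. The 11 genes standing alone had a median heat response of -2.14 in deletion cells and -1.96 in wild-type cells, against -2.83 and -2.53 for the 70 genes of pairs in the same strains. Each class was wide, however: alone, the genes ranged in the deletion strain between -3.52 for RPL38 and -1.30 for RPP0, and in the wild type between -3.19 for RPL38 and -0.81 for RPP0. RPL30, whose protein is known to restrain the splicing of its own transcript, was at -2.999 ± 0.03 in deletion cells and -2.33 ± 0.06 in wild-type cells. RPL28 was at -1.94 and -1.56, RPL29 at -2.74 ± 0.02 and -1.86 ± 0.01, and RPL32 at -2.08 and -1.77 in the same strains.

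Paralogues of a pair often answered heat by unequal amounts. The median size of the difference between the A and the B copy was 0.35 in deletion cells and 0.30 in wild-type cells, several times the spread between repeat spots. Since both copies stand on the same arrays, an offset common to all genes of an array cancels in these differences. The difference was at least 1 in size in 5 of 35 pairs in the deletion strain and in 1 pair in the wild type. It was at least 0.58 in size in both strains in 9 pairs, and within 0.25 in both strains in 11. Of the 10 pairs with 2 spots for each copy and no flagged spot, 5 differed in both strains by more than 3 times the SD of the spots combined. That SD is a technical error on single arrays and does not measure the spread between probes or cultures, so the count is not a test.

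The widest gap was in RPL15, where the A copy minus the B copy was -2.65 ± 0.03 in deletion cells and -2.79 ± 0.09 in wild-type cells. In RPL36 it was -1.12 in deletion cells and -0.92 in wild-type cells, with 1 spot for each copy. RPL12 gave -1.07 and -0.74, and RPL16 gave -1.02 ± 0.02 and -0.74 ± 0.04, in the deletion strain and the wild type. In these pairs the A copy fell further in both strains. The RPL36, RPL12 and RPL16 gaps of the deletion strain dropped just below 1 in size under some settings, to -0.88 at the least. The fifth pair, RPL7, was at -1.16 in deletion cells and -0.56 in wild-type cells, but RPL7B was dim, and the gap in the deletion strain was -0.60 without an offset, -0.19 in the authors' deposited table and 1.36, the other way round, with the scanner's processed signals.

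**Figure D2:**
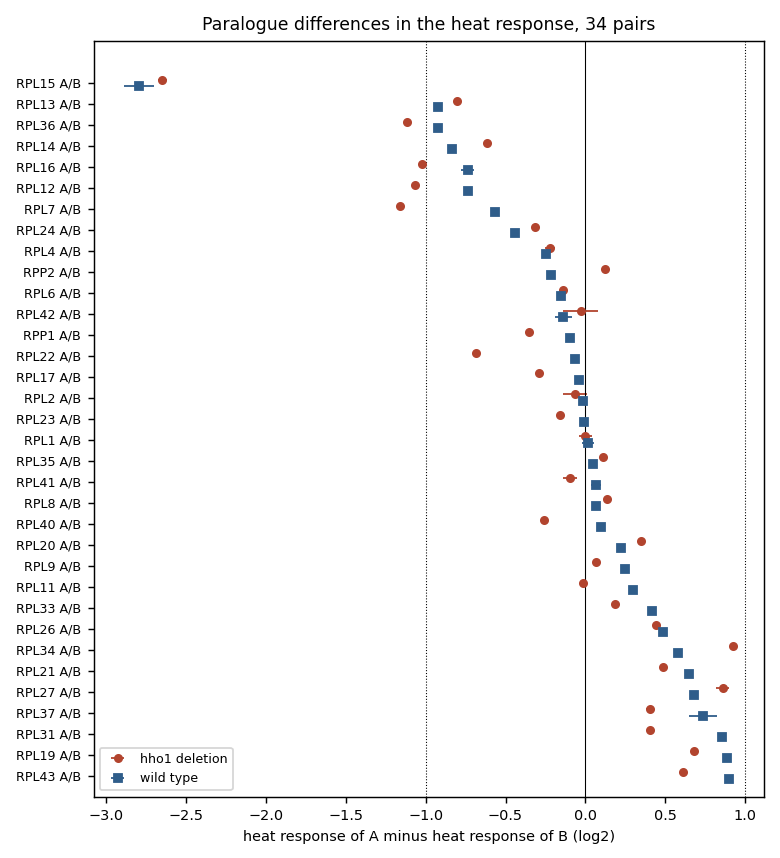
Heat response of the A copy minus that of the B copy for 34 of the 35 pairs (horizontal axis, log2), with the deletion strain as red circles, the wild type as blue squares and bars for the SD of repeat spots where both copies have 2. RPL15 lies at -2.65 and -2.79, apart from the other pairs, which lie between -1.16 and 0.92.

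In other pairs the B copy fell further. RPL43 gave 0.61 in deletion cells and 0.90 in wild-type cells, RPL19 gave 0.68 ± 0.01 and 0.88 ± 0.02, and RPL34 gave 0.92 ± 0.01 and 0.58 ± 0.01. RPL31 was at 0.40 and 0.86, RPL27 at 0.86 ± 0.04 and 0.68, and RPL37 at 0.41 ± 0.02 and 0.74 ± 0.09, in the same strains. Pairs whose copies moved alike included RPL1, at 0.00 ± 0.04 and 0.01 ± 0.04, RPL2, at -0.06 ± 0.07 and -0.02 ± 0.01, RPL23, at -0.16 and -0.01, and RPL42, at -0.03 ± 0.11 and -0.14 ± 0.06. Copies that share a probe's target would also read alike, and this was not tested.

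At 25 °C no member rose or fell in the deletion strain, against 0.0501% of all genes risen and 0.0167% fallen. The median log2 ratio of the deletion strain over the wild type was -0.05, and 33 of 81 members lay above 0, while all genes had a median of -0.02. The lowest members were RPL24A at -0.56 ± 0.01, RPL21B at -0.43, RPL13B at -0.42, RPL9A at -0.36 ± 0.00 and RPL24B at -0.35. The highest were RPP1A at 0.66, RPP1B at 0.59, RPL41A at 0.48 ± 0.02, RPL41B at 0.41 ± 0.01 and RPL1A at 0.39 ± 0.03. Paralogues stayed close: the median size of the A minus B difference was 0.08, and the widest was 0.37 in RPL43.

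Some of the values at 25 °C moved when the same dye was read on both sides. When the deletion strain in Cy3 was set against the wild-type RNA read in Cy3 on the other slide, the median became -0.27, RPP1A and RPP1B were both at 0.00, and RPL41A and RPL41B were at 0.44 and 0.54. With the same dye, RPL3 and RPL4A passed the rule, at -1.15 and -1.06, against -0.32 ± 0.05 and -0.24 ± 0.03 within the array. The median also moved within the array, with no change of dye or slide. Median centring in place of loess gave -0.28, with 10 of 81 members above 0, where all genes had a median of -0.02. The share of dye, slide, normalisation and strain in these values cannot be told apart.

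At 37 °C the deletion strain lay lower than the wild type for most members. The median log2 ratio was -0.38, against 0.01 over all genes, and 13 of 81 members lay above 0. Of the 81, 4 fell and none rose, against 0.407% of all genes fallen and 0.187% risen. Those that fell were RPL41A at -1.22 ± 0.05, RPL41B at -1.14 ± 0.03, RPL24A at -1.05 ± 0.07 and RPL14B at -1.01 on 1 spot. RPL24B followed at -0.97. The highest members were RPL18B at 0.74 ± 0.03, RPL22B at 0.65, RPL16B at 0.22 ± 0.03, RPL27A at 0.21 and RPL19B at 0.18 ± 0.03. RPL41, RPL24 and RPL40, together with RPL10 at -0.08, make up the interface group, whose median was -0.97, against -0.38 for the stalk, -0.17 for the genes of the proteins that bind 5S ribosomal RNA, -0.38 for the tunnel exit and -0.37 for the others.

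This comparison sets arrays of opposite dye orientation and different slides against each other, and its size moved with the processing. The members' median was below 0 at each of the 9 settings, between -1.27 with median centring in place of loess and -0.27 without background correction. Median centring also moved the median of all genes to -0.37, and the members' median stood at -0.90 relative to it. At that setting 66 members fell, or 81.5%, against 10.3% of all genes. In a comparison within each dye, each heat-shocked sample was set against wild-type RNA from 25 °C read in its own dye, and the ratio of the wild type was subtracted from that of the deletion strain. The median of the members was then -0.39 and that of the interface group -0.30, and none of the 4 genes passed the rule: RPL41A was at -0.39, RPL41B at -0.19, RPL24A at -0.03 and RPL14B at -0.40. The genes past the rule were then RPL12A at -1.17, RPP0 at -1.05 and RPL30 at -1.01, which fell, and RPL22B at 1.33, which rose, leaving out RPL7B, which was dim in the heat-shocked deletion strain. RPL22B had 1 spot, with a low signal above background of 110.28 in the heat-shocked wild type. The wild-type RNA from 25 °C, read in Cy5 on both deletion arrays, itself differed between them by a median of 0.43 over the members (SD over genes 0.20, heat-shocked minus 25 °C array) and 0.00 over all genes. The 25 °C deletion array enters the comparison within each dye but not the main ratio at 37 °C. Read in Cy3 on the wild-type array, this RNA differed from its Cy5 reading on the deletion arrays by a median of 0.098 over the members (SD over genes 0.27). Over all genes that median was 0.02. The part of these gaps in the results was not tested.

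The difference of heat responses, deletion strain minus wild type, had a median of -0.34 over the members and 0.04 over all genes, and 16 of 81 members lay above 0. It was past the rule in 3 members, all lower in the deletion strain, against 0.153% of all genes lower and 0.375% higher. RPL41A (YDL184C) shows how the value arises. Its log2 ratio to the wild type at 25 °C was -1.65 ± 0.02 in the deletion strain at 37 °C, 0.48 ± 0.02 in the deletion strain at 25 °C and -0.43 ± 0.03 in the wild type at 37 °C. RPL41A thus lay above the wild type at 25 °C, within the rule, and below it at 37 °C, and the difference of heat responses was -1.71 ± 0.07. RPL41B (YDL133C-A) gave -1.63 ± 0.03, 0.41 ± 0.01 and -0.50 ± 0.00 on the same arrays and a difference of -1.55 ± 0.01. The RPL41 peptide, which lies between the subunits, is the shortest of the ribosome, and its genes are near-identical, so their likeness is not a second measurement.

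RPL14B came next, at -1.14, and its copy RPL14A was at -0.92 ± 0.02, with RPP2B at -0.92. The highest were RPL22B at 0.62, RPL18B at 0.49 ± 0.03, RPL3 at 0.43 ± 0.08, RPL19B at 0.36 ± 0.01 and RPL27A at 0.24. Compared within each dye the median was -0.059, with 36 of 81 members above 0, and RPL41A was at -0.84, RPL41B at -0.73 and RPL14B at -0.59. RPL22B was then past the rule upward, at 1.07 on 1 spot of low signal, with RPL7B left out. With median centring the median was -0.92, where all genes had a median of -0.34. At that setting 34 members, or 42%, were lower past the rule, against 4.6% of all genes.

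**Figure D3:**
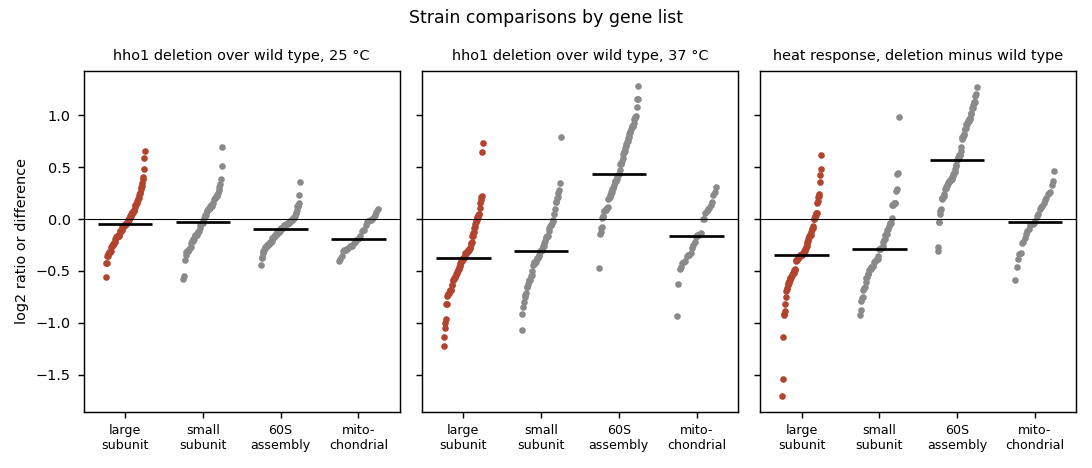
Log2 ratio of the deletion strain over the wild type at 25 °C and at 37 °C, and the difference of heat responses (deletion minus wild type), for each gene of the large subunit (red) and of 3 other lists (grey), with bars at the medians. At 37 °C the medians are -0.38 for the large subunit, -0.30 for the small subunit, 0.43 for assembly factors and -0.16 for mitochondrial ribosomal proteins.

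Among the members that stood high in the deletion strain at 37 °C, RPL18B had array ratios to the wild type at 25 °C of -2.04 ± 0.12 in the deletion strain at 37 °C, 0.25 ± 0.01 in the deletion strain at 25 °C and -2.78 ± 0.14 in the wild type at 37 °C. RPL18B thus fell less in deletion cells, at -2.29 ± 0.11, than in wild-type cells, at -2.78 ± 0.14. Compared within each dye its ratio at 37 °C was 0.23 ± 0.32. RPL22B, on 1 spot, had array ratios of -2.28, 0.03 and -2.93 in the same order. Its signal above background was low, at 221.08 in the heat-shocked deletion strain and 110.28 in the heat-shocked wild type. The heat response of RPL22A minus that of RPL22B was -0.68 in deletion cells and -0.07 in wild-type cells. Over all 35 pairs the median size of the A minus B difference was 0.18 at 37 °C and 0.20 in the difference of heat responses.

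The genes of the small subunit, which decodes the message, were lower after heat as well. All 56 fell in both strains, with a median of -2.76 in deletion cells and -2.50 in wild-type cells. RPS26B was lowest, at -4.18 in deletion cells and -3.98 in wild-type cells, and its copy RPS26A highest, at -1.08 and -1.24. At 37 °C the small subunit's median ratio of the deletion strain over the wild type was -0.30, with RPS31 alone fallen, at -1.07. The mitochondrial ribosome, which is encoded by other genes, stood apart: none of 30 genes for its large subunit passed the rule with heat, and their medians were 0.15 in deletion cells and 0.09 in wild-type cells.

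The genes of factors that assemble the large subunit also fell with heat, in 69 of 70 cases in each strain, and SDO1, at -0.51 in deletion cells and -0.55 in wild-type cells, did not pass the rule. Their median was -2.97 in deletion cells and -3.65 in wild-type cells. At 37 °C they lay on the other side of 0 from the ribosomal protein genes. Of the 70, 4 rose, or 5.71%, against 0.187% of all genes, and the median of the deletion strain over the wild type was 0.43. That median was above 0 at every setting, but processed signals gave 0.082, where 2 rose and 3 fell, and the authors' deposited table gave 0.11, where 1 rose, against 0.90 and 29 risen when compared within each dye. In the difference of heat responses their median was 0.57, and 11 were past the rule upward, or 15.7%, against 0.375% of all genes. This median too moved with the setting, between 0.19 with the processed signals and 0.74 within each dye. With the processed signals some genes were past the rule upward and others downward.

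**Figure D4:**
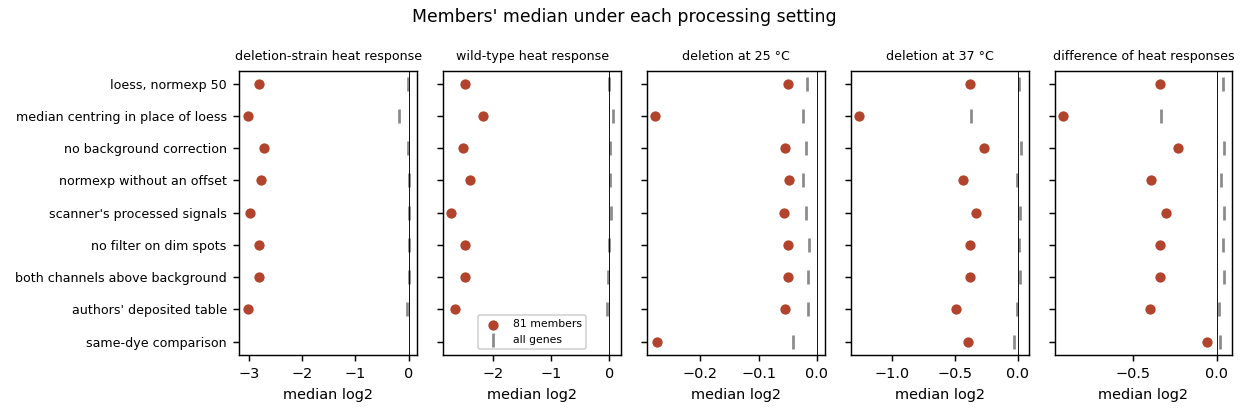
Median log2 value of the 81 large subunit genes (red circles) and of all genes (grey ticks) in each of the 5 comparisons under each processing setting, where the panels have their own horizontal scales. At 37 °C the members' medians lie between -1.27 and -0.27, with the lowest under median centring.

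Dedicated chaperones accompany particular ribosomal proteins to the nucleus or to the assembling subunit, and importers bring proteins into the nucleus. Of 9 such genes 7 fell in both strains. RRB1, which serves RPL3, was at -3.58 in deletion cells and -4.34 in wild-type cells, SYO1, which serves RPL5 and RPL11, at -3.30 and -4.23, and ACL4, which serves RPL4, at -2.70 and -3.21. SQT1, which serves RPL10, was at -1.86 and -1.79, BCP1, which serves RPL23, at -2.56 and -3.33, the importer KAP123 at -2.77 and -2.70, and TSR2, which serves a small subunit protein, at -2.56 and -3.16. The importer KAP104, at -0.44 and -0.56, and YAR1, at 0.59 and 0.94, did not pass the rule.

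Of 13 regulators of ribosomal protein or ribosome assembly genes 2 fell and none rose in either strain, or 15.4%, close to the 15.8% and 16.4% of all genes that fell in the deletion strain and the wild type. TOD6, a repressor of ribosome assembly genes, was at -2.41 in deletion cells and -2.91 in wild-type cells. UTP22, which acts in small subunit assembly and binds Ifh1, was at -2.14 and -2.44. RAP1 was at -0.82 and -0.70, IFH1 at -0.90 and -0.94, FHL1 at -0.21 and -0.25, and the nutrient-regulated activator gene SFP1 at 0.05 and -0.05. The repressor genes STB3, at 0.98 and 0.80, and DOT6, at 0.46 and 0.31, the corepressor gene CRF1, at 0.38 and 0.39, and HMO1, at 0.13 and 0.05, stayed within the rule, as did ABF1 at 0.26 and 0.05, REB1 at -0.19 and -0.26, and TBF1 at -0.52 and -0.94. DOT6 was at 0.66 for the deletion strain over the wild type at 25 °C and 0.81 at 37 °C, below the rule at both temperatures.

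Some members lie next to another ribosomal protein gene in the R64 gene table, and in 5 of 9 such adjacent pairs the genes are transcribed away from each other and so share the sequence between their starts. These neighbours are named by position. RPL24A and RPL30 were at -2.64 and -2.999 in deletion cells and at -2.15 and -2.33 in wild-type cells. RPS16B and RPL13A were at -3.91 and -3.44 in deletion cells and at -3.38 and -3.46 in wild-type cells, and RPL13B and RPS16A at -2.63 and -2.47, and at -2.54 and -2.19, in the same strains. RPS15 and RPP2A were at -2.47 and -2.23 in deletion cells and at -2.18 and -1.64 in wild-type cells. RPS22A and RPL39 lay further apart, at -3.79 and -2.62 in deletion cells and at -3.34 and -2.005 in wild-type cells.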

How the data were processed

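Spot intensities come from Agilent Feature Extraction 9.1.1.1, per the file headers. The deposited scanner files give mean and local background intensity per channel, a processed signal and a log10 ratio of red over green, per the file headers, which was used to set the direction of the authors' table. The authors' deposited table holds log2 ratios per spot; the submitters' processing notes name limma, and no source used here gives its centring. Its medians were -0.050 (heat-shocked deletion cells), -0.013 (deletion cells at 25 °C) and -0.020 (heat-shocked wild type), and in this order it correlated with the scanner's ratios, turned to sample over wild type, at 0.964, 0.733 and 0.970.

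With limma 3.58.1 in R 4.3.3, background was corrected by normexp with an offset of 50, followed by loess within arrays, with control and flagged spots at weight 0. The offset draws dim ratios towards 0. Spots were used if 1 or both channels were well above background on every array compared, and were averaged per gene. Flagged spots left RPL13A, RPL27A and RPL4B with 1 spot on the wild-type array. The heat response of the deletion strain is its 37 °C ratio minus its 25 °C ratio. Each probe was counted for the 1 gene it is annotated to, and whether it also reads a near-identical copy was not tested. No test was run, and the number of arrays limits the precision. The calculations were tested on simulated data, in which genes drawn at random changed, as many upward as downward. Those data hold no common fall of bright genes, so how loess treats such a fall was not tested. Alternatives were median centring, no background correction, no offset, the scanner's processed signals, no filter, a filter on both channels, the authors' table, comparison within a dye and a rule of 1.5.

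Named genes were HHO1, members by role, the 5 highest and 5 lowest members per comparison, pairs differing by 1 or more, members outside the common fall, the highest and lowest of other lists and all chaperones and regulators. Members and lists were chosen with earlier results of these data known. Gene names follow the R64 gene table, which matched 5756 of 6256 genes. No source used here names the genome build of the probes, and coordinates are left out. The values of 1 member are not reported here by name; counts and medians include it.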

Additional observations from a re-analysis of the deposited data

How the results depend on the processing

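The members fell in 79 to 80 of 81 cases in the deletion strain and 75 to 78 in the wild type over the alternatives run. The median heat response of the deletion strain was -3.02 with median centring, -2.72 without background correction, -2.98 with processed signals and -3.02 in the authors' table. The wild-type median was -2.16 with median centring, -2.39 without an offset, -2.71 with processed signals and -2.64 in the authors' table. The median at 25 °C was -0.28 with median centring and -0.27 within a dye. At 37 °C it was -1.27 with median centring, -0.27 without background correction, -0.44 without an offset and -0.49 in the authors' table. The median difference of heat responses was -0.92 with median centring, -0.23 without background correction and -0.059 within a dye. Median centring moved the median of all genes to -0.19 in the deletion strain's heat response, -0.37 at 37 °C and -0.34 in the difference. Members fallen at 37 °C numbered 4 in the main setting, 66 with median centring, 2 without background correction, 7 in the authors' table, 3 within a dye and 0 at a rule of 1.5; in the difference 3 became 34 with median centring and 0 within a dye. At 37 °C 11 of all genes rose and 24 fell, against 591 and 605 with median centring and 117 and 46 within a dye. In the difference 9 of all genes were lower past the rule in the main setting, against 270 with median centring. RPL7A minus RPL7B in the deletion strain was 1.36 with processed signals, the only reversed value. Of the values of single genes and pairs, the pairs' medians and the smaller counts over the alternatives, 995 kept their call or size, 353 moved, 46 came to pass the rule and 19 ceased to; of the members' medians and the counts fallen with heat, 37 kept their size and 17 moved. The comparison within a dye was run for the strain comparisons and the difference only, and the strict filter left no value for RPL7B in the heat-shocked deletion strain. Except where values are given, the cause was not tested. No paired analysis was possible because a lone array per group leaves no test to block. By the scanner's call of spots well above background, RPL7B alone among the members was limited. Other members were also low in the heat-shocked wild type, among them RPL22B at 110.28 and RPL31B at 166.09 above background. How far the offset drew their ratios towards 0 was not tested.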
